A study of Mus musculus with 12 samples.

Results

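Expression of 8 genes tied to the endothelial-to-mesenchymal transition was followed in mouse carotid artery intima after 7 days of disturbed blood flow. The genes were the transcription factors Snai1, Snai2, Twist1, Twist2, Zeb1 and Zeb2 and the markers Vim and S100a4, taken as a named list together with every probe annotated to them. They are 8 of the 19057 genes with a named probe, were covered by 15 of the 45281 probes on the bead array, and 10 of these probes, for 5 of the 8 genes, passed the filter of detection on all 3 samples of at least 1 group. The 12 samples formed 4 groups of 3. The 5Aza LCA group was the ligated left carotid artery of male C57Bl6 mice that received 5-Aza-2'deoxycytidine, an inhibitor of DNA methyltransferases, at 0.2 mg/kg/day by intraperitoneal injection for 21 days. The 5Aza RCA group was the unligated right carotid artery under the same treatment. The saline LCA and saline RCA groups were the ligated left and the unligated right artery of mice injected with saline instead. On the left side 3 caudal branches out of 4 were tied, the tie was in place for the last 7 days, and the labels give an age of 9 weeks where the series description gives 6 to 8 weeks. Each sample was endothelial-enriched RNA flushed from 3 pooled arteries, so 1 value stands for a pool and not for a mouse. No left artery without ligation was analysed here, so side and ligation cannot be told apart.

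In the endothelial-to-mesenchymal transition, endothelial cells lose junctions and endothelial gene products and take on those of mesenchymal cells. Transforming growth factor beta signalling can start the program, and zinc finger proteins of the Snai and Zeb families and basic helix-loop-helix proteins of the Twist family carry it out by binding E-box sequences in promoters, with the E-cadherin gene as the classic repressed target. Vim encodes vimentin, an intermediate filament protein of mesenchymal cells that endothelial cells and leukocytes also make. S100a4 encodes a calcium-binding protein used as a fibroblast marker, which macrophages and other leukocytes also make. Regions of disturbed flow in arteries are known sites of atherosclerosis, and such a transition has been described there.

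The sample labelled intima held endothelial transcripts on every array. Of 16 endothelial markers, 15 were detected on all 12 arrays, and Pecam1, the adhesion molecule CD31, lay between 9.99 and 10.92 on the log2 scale of normalized intensity. Smooth muscle transcripts were detected as well, at uneven levels. Of 10 smooth muscle markers, 5 were detected on all 12 arrays and 5 on some of them. Acta2, smooth muscle actin, lay between 10.15 and 11.18, and the other tested markers between 4.32 and 8.46. Between 21443 and 23251 probes were detected per array, and the lowest normalized level of a detected probe was 4.45 to 4.54 on the log2 scale. Arrays of the saline LCA group were not alike. Over the 10596 genes tested the Pearson correlation of saline LCA 1 was 0.857 with saline LCA 2 and 0.856 with saline LCA 4. With the arrays of the other groups it was 0.915 to 0.94, of which 0.926 to 0.934 with the 3 saline RCA arrays. Saline LCA 2 and 4 correlated at 0.971 with each other and at 0.801 to 0.887 with the arrays of the other groups. Which of these arrays was unusual was not tested. Most counts that rest on saline LCA 1 are given with and without it. Leaving it out raised the share of all genes called, to 29.4% for flow under saline, 2.7% for flow under 5Aza, 19.4% for 5Aza in the ligated artery, 0.00944% for 5Aza in the unligated artery, 9.59% for the change of the flow difference with 5Aza and 29.8% for flow averaged over treatments. Counts without saline LCA 1 stand against these shares. With all arrays the shares, in the same order, were 11.5%, 0.453%, 0.462%, 0%, 0% and 12.9%, and counts with all arrays stand against those. Leaving out saline LCA 2 or saline LCA 4 instead lowered the share for flow under saline, to 1.69% and 1.95%.

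Between the ligated and the unligated artery of saline mice 3 genes were called, and their promoters are shown because the compared treatments include an agent that acts on CpG methylation. The windows run from 250 bases before to 50 bases after the annotated start, are taken from RefSeq on build GRCm38.p6 and read 5′ to 3′ on the + strand, and capitals mark CG dinucleotides. Their coordinates are chr12:33957421-33957720 for Twist1, chr2:13574061-13574360 for Vim and chr3:90603520-90603819 for S100a4.
Twist1: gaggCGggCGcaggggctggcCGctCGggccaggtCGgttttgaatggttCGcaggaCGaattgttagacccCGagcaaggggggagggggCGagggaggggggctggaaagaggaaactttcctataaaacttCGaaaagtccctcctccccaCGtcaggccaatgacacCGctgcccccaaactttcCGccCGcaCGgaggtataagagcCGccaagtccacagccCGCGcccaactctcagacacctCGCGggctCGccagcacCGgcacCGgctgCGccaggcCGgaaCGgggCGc
Vim: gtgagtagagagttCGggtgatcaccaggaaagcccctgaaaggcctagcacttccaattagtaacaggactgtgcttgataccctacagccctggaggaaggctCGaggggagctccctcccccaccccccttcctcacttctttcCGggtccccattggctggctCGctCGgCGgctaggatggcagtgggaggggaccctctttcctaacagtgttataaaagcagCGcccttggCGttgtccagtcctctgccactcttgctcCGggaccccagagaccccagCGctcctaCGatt
S100a4: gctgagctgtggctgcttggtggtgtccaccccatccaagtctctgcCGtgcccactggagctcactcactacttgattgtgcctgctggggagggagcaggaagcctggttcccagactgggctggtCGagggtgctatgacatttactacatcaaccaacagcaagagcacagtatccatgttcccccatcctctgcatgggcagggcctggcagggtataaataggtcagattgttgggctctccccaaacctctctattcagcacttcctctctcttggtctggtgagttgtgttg
The Twist1 window held 27 CpG, Vim 11 and S100a4 2, against a median of 7 over 32851 windows. As many or fewer were held by 85.8% of all windows for the Twist1 count, 60.4% for the Vim count and 23.3% for the S100a4 count. Windows were matched for 6 of the 8 genes. The E-box letters CAGGTG, searched on both strands, were absent from these 3 windows and present in 20.2% of all windows. Among the other genes with a window, the Snai1 window held 34 CpG and 1 copy of these letters. No methylation was measured in these files.

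Snai1 and Snai2, repressors that bind the promoters of junction genes, stayed near background. The brighter Snai1 probe, ILMN_2904765, was detected on 1 array in each of the 4 groups, and the other, ILMN_1241355, on saline LCA 2 alone. Raw intensities of the brighter probe were 81.8 to 97.4, with the highest on saline LCA 2. The Snai2 probe ILMN_2647563 was detected on 6 arrays, namely 1 5Aza LCA, 2 5Aza RCA, 2 saline LCA and 1 saline RCA. Its raw intensities were 81.2 to 111.4, with the highest on 5Aza RCA 3. Detection of both genes was therefore scattered over all groups, and neither met the rule of detection on all 3 arrays of a group.

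Twist2, the paralog of Twist1, was detected on 2 arrays, 5Aza LCA 2 and 5Aza RCA 4, and on no saline array. Its probe ILMN_1230558 had raw intensities of 74.95 to 106.5, and the highest, on 5Aza RCA 4, corresponded to 5.29 on the log2 scale. Detection on 2 of 6 5Aza arrays and on 0 of 6 saline arrays is a description and was not tested. In a fit with no detection filter, limma gave Snai1, Snai2 and Twist2 adjusted p-values of 0.744 or more in all 6 comparisons. Differences for these 3 genes were not detectable at this signal.

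Twist1, a basic helix-loop-helix factor known to induce the transition, fell in the ligated artery of saline mice. Its probe ILMN_1236188 read 6.66, 5.50 and 5.71 in saline LCA pools, against 7.28, 7.79 and 7.87 in saline RCA pools, all log2. Every ligated value lay below every unligated one. The difference was -1.69 on the log2 scale (SE 0.29, 95% interval -2.32 to -1.05), a fold of 0.311, with a limma adjusted p of 0.00786. The call held on leaving out any 1 array, and without saline LCA 1 the difference was -2.04. It was lost when only the 2 groups compared entered the fit (adjusted p = 0.0631). In bulk RNA of this kind, fewer cells of a type and less RNA per cell cannot be told apart.

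In mice given 5Aza, Twist1 read 6.69, 7.05 and 6.62 in the ligated artery and 7.23, 6.89 and 7.26 in the unligated artery. The groups overlapped, and the flow difference of -0.34 (95% interval -0.98 to 0.29) did not pass the test, with a limma adjusted p of 0.67. Within the ligated artery the difference of 5Aza from saline was 0.83 (95% interval 0.19 to 1.46, limma adjusted p = 0.166). Within the unligated artery it was -0.52 (95% interval -1.15 to 0.12, limma adjusted p = 0.951), where the groups did not overlap. The 5Aza groups thus lay between the saline groups. The lowest group mean was 5.96 ± 0.62 in saline LCA, followed by 6.78 ± 0.23 in 5Aza LCA, then 7.13 ± 0.21 in 5Aza RCA, with saline RCA highest at 7.64 ± 0.32 (SD, n = 3 each), and no neighbouring pair in this order passed the test.

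The change of the Twist1 flow difference with 5Aza was 1.35 on the log2 scale (SE 0.41, 95% interval 0.45 to 2.24). Its unadjusted p was 0.00677 and its limma adjusted p 0.445, so it was not called, and no gene of the array was called in that comparison. Without saline LCA 1 the same quantity was 1.70 with a limma adjusted p of 0.00676, and the 5Aza difference in the ligated artery was 1.18 with an adjusted p of 0.00488. The call on this change therefore turned on 1 array.

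**Figure D1:**
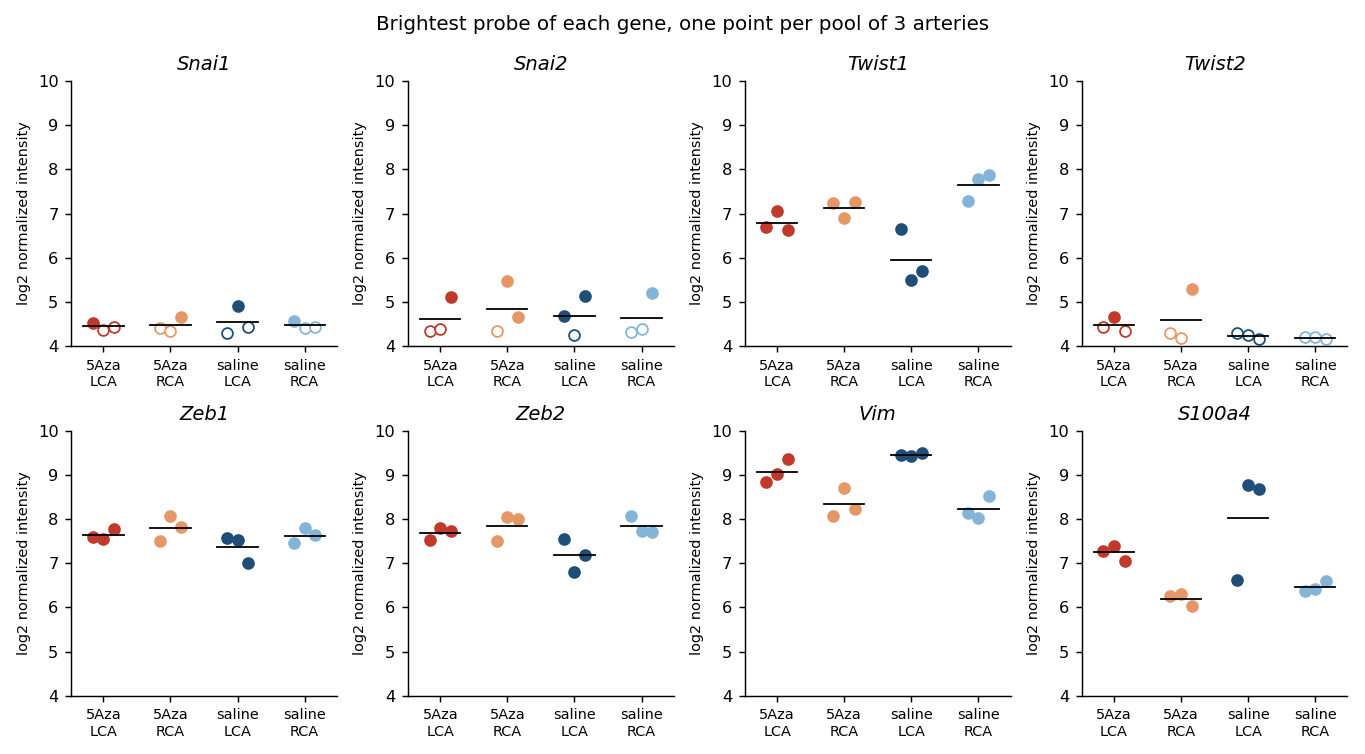
Log2 normalized intensity (y axis, 4 to 10) of the brightest probe of each of the 8 genes, with 1 point per pool, bars at group means and groups along the x axis as 5Aza LCA, 5Aza RCA, saline LCA and saline RCA. Open points are arrays where the probe was not detected. Snai1, Snai2 and Twist2 sit near the floor, Twist1 is lowest in saline LCA at 5.96 and Vim highest there at 9.46, and S100a4 in saline LCA holds 1 pool at 6.62 and 2 at 8.67 and 8.78.

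Zeb1 and Zeb2 encode zinc finger homeobox repressors of the E-cadherin gene. The brighter Zeb1 probe, ILMN_2492500, read 7.56, 7.53 and 7.00 in saline LCA pools, against 7.45, 7.79 and 7.64 in saline RCA pools. In 5Aza mice it read 7.59, 7.54 and 7.77 in the ligated artery and 7.50, 8.07 and 7.81 in the unligated artery. All 4 groups overlapped. The flow difference was -0.26 under saline (95% interval -0.72 to 0.20) and -0.16 under 5Aza (95% interval -0.62 to 0.30), with limma adjusted p-values of 0.438 and 0.798. The second Zeb1 probe, ILMN_1251561, gave -0.25 in both, with an SE of 0.48.

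The brightest Zeb2 probe, ILMN_1227793, read 7.55, 6.81 and 7.18 in saline LCA pools, against 8.07, 7.72 and 7.71 in saline RCA pools. The groups did not overlap, but the difference of -0.66 (95% interval -1.15 to -0.16) missed the threshold with a limma adjusted p of 0.0774. The difference was -0.84 without saline LCA 1, with an adjusted p of 0.0136. Under 5Aza the same probe read 7.53, 7.80 and 7.72 in the ligated artery and 7.51, 8.05 and 8.00 in the unligated artery, where the groups overlapped and the difference was -0.17 (limma adjusted p = 0.804).

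The other Zeb2 probes did not all share this direction. Under saline the flow difference was 0.21 (SE 0.24) for ILMN_2419650, 0.50 (SE 0.27) for ILMN_1232121 and -0.17 (SE 0.20) for ILMN_1229830. The remaining probe, ILMN_1258778, missed the filter and was detected on 2 5Aza LCA and 2 saline LCA arrays and on no RCA array. Adjusted over all kept probes, no Zeb2 probe passed in any of the 6 comparisons. The mean over the 4 kept probes gave -0.03 under saline with a limma adjusted p of 0.933, so the Zeb2 difference depended on the probe.

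**Figure D2:**
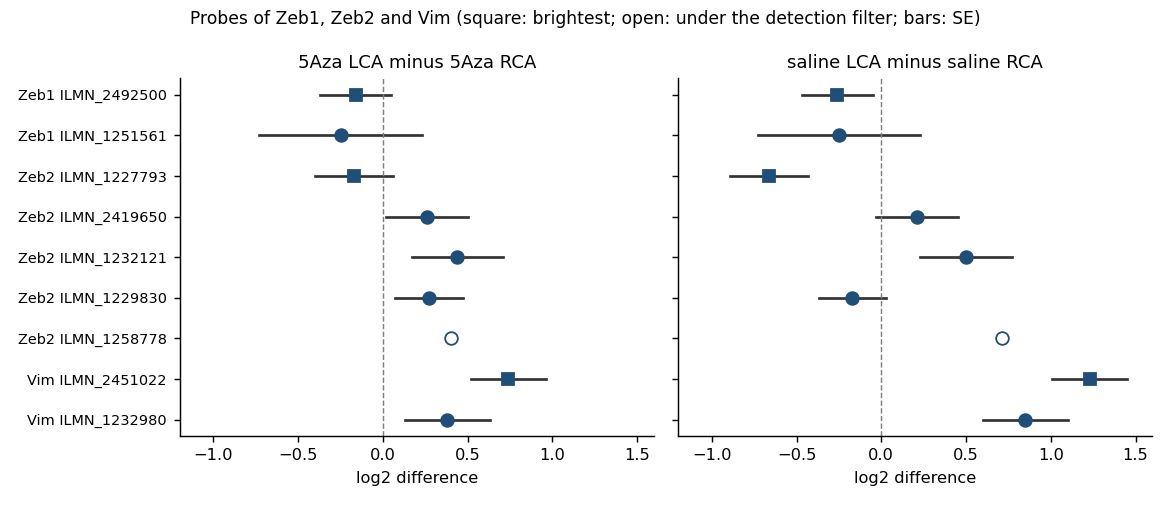
Log2 differences of ligated minus unligated artery (x axis) for each probe of Zeb1, Zeb2 and Vim, with 5Aza pools on the left and saline pools on the right, bars for 1 SE, squares for the brightest probe and open points for the probe under the detection filter. Zeb2 probes fall on both sides of 0 under saline, between -0.66 and 0.71, and both Vim probes lie above it at 1.23 and 0.85.

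Vim was higher with disturbed flow in saline mice. Its brighter probe, ILMN_2451022, read 9.46, 9.43 and 9.49 in saline LCA pools, against 8.14, 8.02 and 8.53 in saline RCA pools. All ligated values lay above all unligated ones, and the ligated pools, saline LCA 1 included, had an SD of 0.03. The difference was 1.23 on the log2 scale (SE 0.22, 95% interval 0.75 to 1.70), a fold of 2.34, with a limma adjusted p of 0.00928. It passed the threshold under all 27 alternatives tried, at 1.04 to 1.37.

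Under 5Aza, Vim read 8.83, 9.02 and 9.37 in the ligated artery, against 8.06, 8.71 and 8.23 in the unligated artery. These groups did not overlap either, but the difference of 0.74 (95% interval 0.26 to 1.22) did not pass, with a limma adjusted p of 0.19. In the ligated artery the difference of 5Aza from saline was -0.38 (95% interval -0.86 to 0.10, limma adjusted p = 0.368), again without overlap, and in the unligated artery it was 0.10 (95% interval -0.38 to 0.58). The change of the flow difference with 5Aza was -0.48 (95% interval -1.16 to 0.19, limma adjusted p = 0.615), so the flow responses of Vim in the 2 treatments were not shown to differ. The lowest group mean was 8.23 ± 0.26 in saline RCA, followed by 8.34 ± 0.34 in 5Aza RCA, then 9.08 ± 0.27 in 5Aza LCA, with saline LCA highest at 9.46 ± 0.03 (SD, n = 3 each) and no neighbouring pair past the test.

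The second Vim probe, ILMN_1232980, read 7.01, 7.41 and 6.64 in saline LCA pools, against 6.42, 6.23 and 5.87 in saline RCA pools. Its flow difference under saline was 0.85 (SE 0.25), in the same direction as the brighter probe, with a limma adjusted p over probes of 0.0554. Averaged over both treatments it was 0.61, with an adjusted p of 0.0484. Here 5Aza pools of the ligated artery, at 6.12, 6.17 and 6.29, lay below the saline ones by a log2 difference of -0.83 (limma adjusted p over probes 0.135).

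S100a4 was also higher with disturbed flow under saline, with the largest standard error of the 5 tested genes. Its probe ILMN_2731901 read 6.62, 8.78 and 8.67 in saline LCA pools, against 6.38, 6.41 and 6.60 in saline RCA pools. Saline LCA 1 lay just above the unligated pools, and the other ligated pools lay far above them. The difference was 1.56 on the log2 scale (SE 0.44, 95% interval 0.59 to 2.52), a fold of 2.94, with a limma adjusted p of 0.0435. It was 2.26 without saline LCA 1, with an adjusted p of 5.38e-06. Leaving out any 1 of the other 11 arrays ended the call, with adjusted p-values of 0.0556 to 0.177 and values of 1.18 without saline LCA 2 and 1.23 without saline LCA 4. Over all genes 1.69% to 10.2% were called in those fits, against 11.5% with all arrays.

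Under 5Aza, S100a4 read 7.27, 7.40 and 7.06 in the ligated artery, against 6.26, 6.30 and 6.04 in the unligated artery. The groups did not overlap, and the difference was 1.04 (95% interval 0.08 to 2.01) with a limma adjusted p of 0.369. This p uses a spread pooled with saline LCA, and without saline LCA 1 the same difference had an adjusted p of 0.00712. In the ligated artery the difference of 5Aza from saline was -0.78 (95% interval -1.74 to 0.18, limma adjusted p = 0.361), and without saline LCA 1 it was -1.48 (adjusted p = 0.000204). In the unligated artery it was -0.27 (95% interval -1.23 to 0.70), with groups that did not overlap. The lowest group mean was 6.20 ± 0.14 in 5Aza RCA, followed by 6.47 ± 0.12 in saline RCA, then 7.24 ± 0.17 in 5Aza LCA, with saline LCA highest at 8.02 ± 1.22 (SD, n = 3 each).

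Of the 5 tested genes, flow under saline gave 2 higher, Vim and S100a4, 1 lower, Twist1, and 2 that did not pass, Zeb1 and Zeb2. Over all 10596 genes tested, 11.5% were called in that comparison, 5.29% higher and 6.24% lower. In 4 of the 5 genes the groups did not overlap, against 29.6% of all genes. Without saline LCA 1 the number called was 4, with Zeb2 added, against 29.4% of all genes. Without any 1 of the other 11 arrays it was 2, with S100a4 lost, against 1.69% to 10.2% of all genes. These genes did not move in 1 direction: both markers rose, and the factor that passed fell.

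Flow under 5Aza gave 0 calls among the 5 genes, against 0.453% of all genes, where 48 genes were called and 1292 had an unadjusted p under 0.05, and 1 call, S100a4, without saline LCA 1, against 2.7% of all genes. Vim and S100a4 did not overlap between arteries, and 23.2% of all genes did not. The signs of the 5 differences were those seen under saline, with Vim and S100a4 positive and the other 3 negative. The comparison of 5Aza with saline gave 0 calls in the ligated artery, against 0.462% of all genes, with 1 gene, Vim, without overlap, against 18.3%. In that comparison 1971 genes had an unadjusted p under 0.05. Without saline LCA 1 it gave 3 calls, Twist1 and Zeb2 higher and S100a4 lower, against 19.4% of all genes. It shares the saline LCA pools with the flow comparison, so the opposite signs of these 2 sets of differences are not independent.

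In the unligated artery 5Aza gave 0 calls, against 0% of all genes, where 604 had an unadjusted p under 0.05. Twist1 and S100a4 did not overlap there, and 13.6% of all genes did not. The change of the flow difference with 5Aza also gave 0 calls, against 0% of all genes, where 1009 had an unadjusted p under 0.05, and it gave 2, Twist1 and S100a4, without saline LCA 1, against 9.59% of all genes. Averaged over both treatments, the flow difference was 0.98 for Vim (limma adjusted p = 0.00369), 1.30 for S100a4 (0.0231) and -1.01 for Twist1 (0.0117), 3 calls against 12.9% of all genes, 6.06% higher and 6.81% lower. Zeb2 at -0.41 and Zeb1 at -0.21 did not pass.

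**Figure D3:**
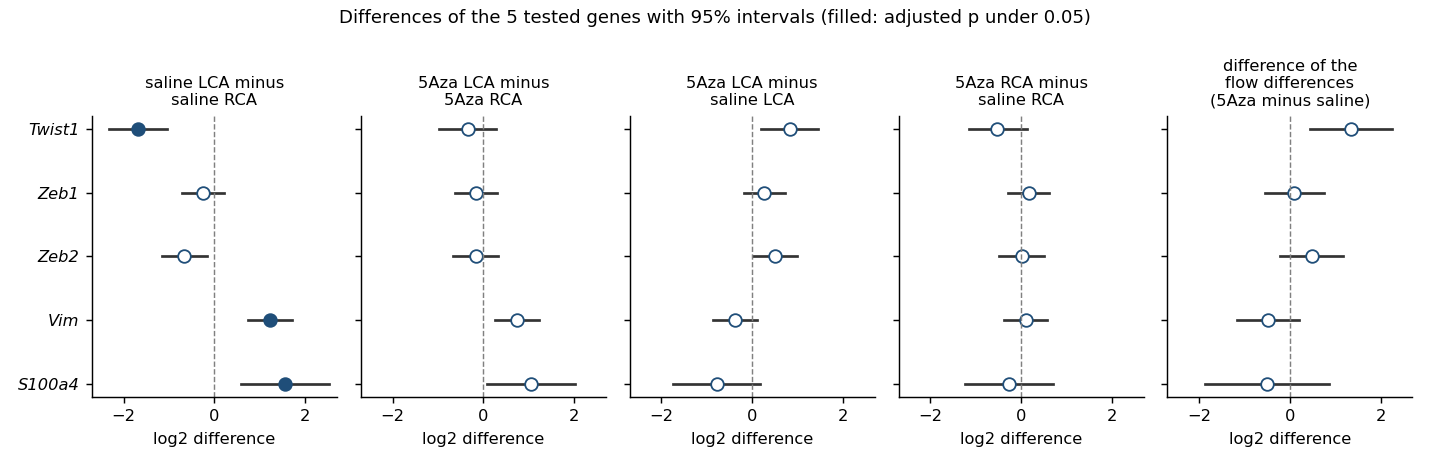
Log2 differences (x axis) of the 5 tested genes with 95% intervals, in panels for flow under saline, flow under 5Aza, 5Aza in the ligated artery, 5Aza in the unligated artery and the change of the flow difference with 5Aza. Filled points have a limma adjusted p under 0.05, which holds for Twist1 at -1.69, Vim at 1.23 and S100a4 at 1.56 under saline and for no gene in the other panels.

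Transcripts of macrophages moved in the same comparison. Of 20 listed macrophage and monocyte markers, 4 did not meet the detection filter and 16 were tested. For 11 of these 16 the filter was met only through a ligated group, which holds for 7.83% of all genes tested, so a higher level in ligated pools was built into their selection. All 16 passed as higher with flow under saline, with and without saline LCA 1, a count that is for this reason a description only. Aif1, an actin-binding protein of macrophages, differed by 5.28 (limma adjusted p = 6.75e-05), and Tyrobp, a signalling adaptor of myeloid cells, by 4.72 (0.00125). Clec7a, the beta-glucan receptor, differed by 3.99 (0.000836), and Fcer1g, the shared Fc receptor chain, was at least 11.7-fold higher (0.00205). That bound sets the ligated mean against the lowest signal among detected probes, because no unligated saline pool detected it. The mean log2 level of the 16 markers was 6.90, 8.80 and 9.02 in saline LCA pools, against 4.26, 4.64 and 5.12 in saline RCA pools. Saline LCA 1 was thus also the lowest of the saline LCA pools here.

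In 5Aza mice the same mean level was 6.71, 6.54 and 7.39 in the ligated artery, against 4.71, 5.54 and 4.52 in the unligated artery. Under 5Aza 3 of the 16 markers rose with flow, against 0.453% of all genes called. They were Aif1 by 3.17 on the log2 scale (limma adjusted p = 0.00706), Tyrobp by 3.15 (0.0424) and Clec7a at least 4.17-fold (0.0451). Without saline LCA 1, 10 rose, against 2.7% of all genes called. Aif1 passed in 11 of 12 fits with 1 array left out, and Tyrobp and Clec7a in 2 each. In the ligated artery 0 of 16 passed between 5Aza and saline, against 0.462% of all genes. Without saline LCA 1, 13 were lower, against 19.4% of all genes called. The change of the flow difference with 5Aza gave 0 calls in this list, and 11 lower without that array, against 9.59% of all genes called. Because 11 of the 16 markers met the filter only through a ligated group, the counts of this paragraph too are descriptions only. None of the 19 markers of this list on the array was detected on all 12 arrays. The part of these cells in the Vim, S100a4 and Twist1 differences was not tested.

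**Figure D4:**
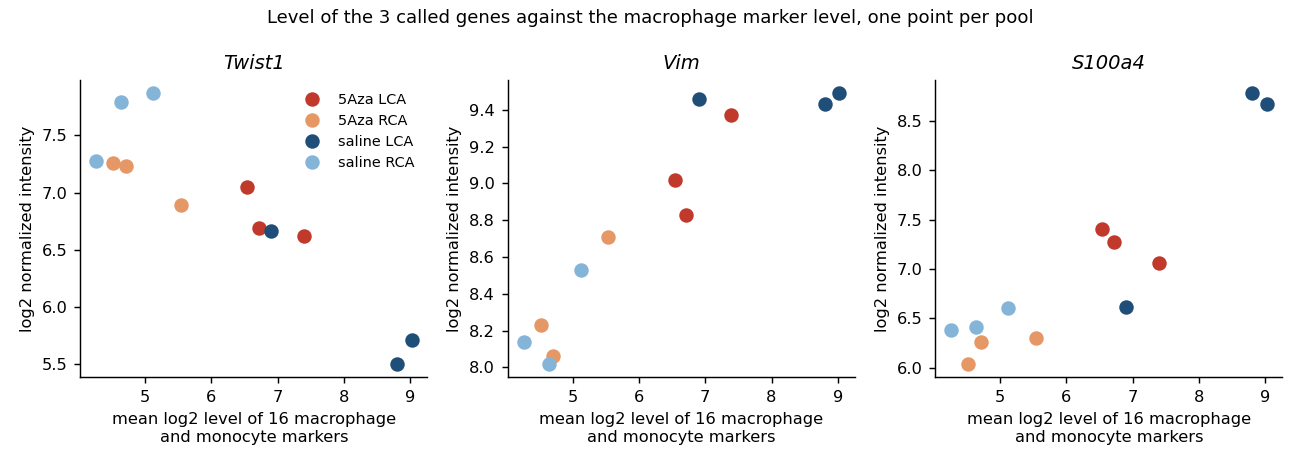
Log2 normalized intensity of Twist1, Vim and S100a4 (y axes) against the mean log2 level of 16 macrophage and monocyte markers (x axis), with 1 point per pool and colours for 5Aza LCA, 5Aza RCA, saline LCA and saline RCA. Vim in saline LCA 1 lies with the other saline LCA pools at a marker level of 6.90, where S100a4 and Twist1 in that pool, at 6.62 and 6.66, lie away from them.

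Endothelial markers that passed under saline were lower. Of 15 tested, 5 fell and 0 rose with flow under saline, with a median of -0.43, against 6.24% of all genes called lower and 5.29% higher. Without saline LCA 1, 7 fell and 2 rose, against 29.4% of all genes called. The mean level was 8.61 to 8.69 in saline LCA pools, against 8.99 to 9.14 in saline RCA pools. Icam2, an adhesion molecule of endothelium, fell by 1.58 on the log2 scale (limma adjusted p = 0.00125) and Ramp2, a receptor partner for adrenomedullin, by 0.87 (0.0138). Under 5Aza only Icam2 of this list passed, at -1.04 (0.0424), in 2 of 12 fits with 1 array left out. Averaged over treatments 5 fell, among them Nos3, endothelial nitric oxide synthase, by 1.43 (0.00912), and 1 rose, the sialomucin gene Emcn by 0.58 (0.0314), which passed in 3 of 12 such fits. Without saline LCA 1 the list gave 4 lower for flow under 5Aza, 6 higher and 1 lower for 5Aza in the ligated artery, 3 higher for the change with 5Aza, and 8 lower and 1 higher for averaged flow.

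Of 8 smooth muscle markers, 0 passed under saline, with a median of 0.70, against 11.5% of all genes called. Without saline LCA 1, 2 rose, against 29.4% of all genes called. That fit also gave 1 lower for flow under 5Aza, 3 lower for 5Aza in the ligated artery and 2 lower for the change with 5Aza, each 0 with all arrays. Averaged over treatments Tagln, the actin-binding protein transgelin, rose by 0.79 on the log2 scale (limma adjusted p = 0.027), in 6 of 12 fits with 1 array left out, and 2 genes rose without saline LCA 1. The mean level of the 8 smooth muscle markers was 6.79 to 7.04 in saline LCA pools, against 6.07 to 6.47 in saline RCA pools, and 5.94 to 6.40 in 5Aza LCA pools, against 6.19 to 6.41 in 5Aza RCA pools. The part of the endothelial and smooth muscle shifts in the differences of Vim and Twist1 was not tested.

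Of 12 fibroblast and adventitia markers, 1 rose under saline and 2 fell, with a median of -0.16, against 11.5% of all genes called. The collagen gene Col1a1 rose. The microfibril gene Mfap5, detected in 1 saline LCA pool, fell by 3.00 and the adventitial gene Pi16 by 2.01 on the log2 scale. Mfap5 was also lower with flow under 5Aza, at -1.64 (limma adjusted p = 0.042), and higher under 5Aza than under saline in the ligated artery, at 1.74 (0.0322), each in 2 of 12 fits with 1 array left out. Averaged over treatments Lum and Dcn, small proteoglycans of the matrix, rose with Col1a1, by 1.75 (0.00985) and 1.09 (0.0223), and Mfap5 fell. Without saline LCA 1 the list gave 1 higher and 3 lower for flow under saline, 2 higher and 1 lower for flow under 5Aza, 6 higher for 5Aza in the ligated artery and 3 higher for the change with 5Aza. The level of these markers was 6.45 to 7.41 in saline LCA pools, against 6.79 to 7.59 in saline RCA pools. Under 5Aza the median was 0.89, and the level was 7.87 to 8.15 in the ligated artery, against 7.07 to 7.55 in the unligated artery. The fibroblast level was thus highest in 5Aza LCA. The part of fibroblasts in the Vim, S100a4 and Twist1 differences was not tested.

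The remaining marker lists had few tested genes. Of 3 neutrophil genes 2 rose with flow under saline, S100a9 and Cxcr2, a chemokine receptor, which was at least 2.25-fold higher (limma adjusted p = 0.0367). Of 5 erythroid and platelet genes 2 rose, the beta globin gene Hbb-bs by 4.20 on the log2 scale (0.0348), which its probe may not separate from a near-identical copy, and the platelet chemokine gene Pf4 by 2.87 (0.045). On leaving out 1 array, Hbb-bs passed in 7 of 12 fits, Cxcr2 in 2 and Pf4 in 1. Averaged over treatments the globin gene Hba-a1 passed as well (0.0266), with no saline RCA pool above detection. Adipoq, the fat cell hormone adiponectin, was at least 6.24-fold higher under 5Aza than under saline in the ligated artery (0.0478), in 3 of 12 fits, and 0 of 3 adipocyte genes passed with flow under saline, against 1 without saline LCA 1. That fit also gave 3 neutrophil genes lower for 5Aza in the ligated artery and 2 lower for the change with 5Aza, 3 erythroid and platelet genes higher for flow under saline, and for averaged flow 4 of these, 2 neutrophil and 2 adipocyte genes higher. The filter was met only through a ligated group for 2 of 3 neutrophil, 3 of 5 erythroid and platelet and 2 of 3 adipocyte genes, so these counts too are descriptions. The 1 tested T cell gene did not pass, and no B cell marker met the filter.

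Mesenchymal genes other than Vim and S100a4 gave few calls, at a share near that of all genes. Of 30 listed genes 24 were tested, and under saline 3 rose, 1 fell and 20 did not pass, against 11.5% of all genes called, with a median log2 difference of 0.15, against -0.05 over all genes. Ccn2, connective tissue growth factor, rose by 1.78 (limma adjusted p = 0.0102), and it was the only gene of the 6 pathway lists that passed with flow under 5Aza, at 1.86 (0.042), in 3 of 12 fits with 1 array left out. Col1a1, a chain of type I collagen, rose by 1.65 (0.0147), and Vcan, the matrix proteoglycan versican, by 2.11 (0.044), with 1 of 3 saline RCA pools above detection. Lox, the enzyme that crosslinks collagen, fell by 0.87 (0.0435). On leaving out 1 array in turn, Ccn2 under saline passed in 12 of 12 fits, Col1a1 in 9, Lox in 2 and Vcan in 1. The list gave 8 higher and 1 lower without saline LCA 1, against 29.4% of all genes. With all arrays Fn1, fibronectin, was the 1 gene of the 6 pathway lists past the threshold between treatments in the ligated artery, lower under 5Aza by a log2 difference of -1.02 (limma adjusted p = 0.0499), and it passed in 1 of 12 such fits. Leaving out saline LCA 1, the mesenchymal list gave 1 higher and 6 lower in that comparison, against 19.4% of all genes, 2 higher and 1 lower for flow under 5Aza, 3 lower for the change with 5Aza, and 7 higher and 2 lower for averaged flow, where all arrays gave 3 and 1.

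Junction and endothelial genes, the kinds that are lost in the transition, went both ways. Among them the E-cadherin gene is the classic repressed target, and repression of the listed genes by these factors was not tested. Of 22 listed genes 13 were tested, and under saline 2 rose, 4 fell and 7 did not pass, against 11.5% of all genes called, with a median log2 difference of -0.43. Tek, the angiopoietin receptor, fell by 1.26 (limma adjusted p = 0.00625), Jam2, a junctional adhesion molecule, by 2.81 (0.00961), and Vwf, von Willebrand factor, by 0.93 (0.0148). Cdh1, E-cadherin, rose by 2.37 (0.00846), at a mean of 6.87 in saline LCA pools, against 4.50 in saline RCA pools, which is at the lowest detected level. In 5Aza mice Cdh1 averaged 6.22 in the ligated artery, against 4.52 in the unligated artery, a difference of 1.71 that did not pass (0.116). Twist1 differed by -0.34 in that comparison, and a link between Twist1 and Cdh1 was not tested. Averaged over treatments the Cdh1 difference was 2.04 (0.00229), and Krt18, a keratin gene, rose by 1.67 (0.0028). Tek and Cdh1 passed in 12 of 12 fits with 1 array left out, Jam2 in 11 and Vwf in 9, and without saline LCA 1 the list gave 3 higher and 5 lower. For flow under 5Aza and between treatments 0 of the 13 passed with all arrays, with Tek at -0.99 (0.0678) and Krt18 at 1.79 (0.0617) for flow under 5Aza. Except for 5Aza in the unligated artery, these counts of 0 turned on saline LCA 1, without which the list gave 2 higher and 3 lower for flow under 5Aza, 5 higher for 5Aza in the ligated artery and 3 higher for the change with 5Aza.

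Of 18 tested partner and related transcription factors, 1 rose, 2 fell and 15 did not pass under saline, against 11.5% of all genes called, with a median of -0.05 on the log2 scale. Foxc2, a forkhead factor, fell by 1.2 (limma adjusted p = 0.0109), and Ctbp1, a corepressor that Zeb and Snai proteins recruit, by 0.93 (0.0444). Ets1, a factor of endothelial and immune cells, rose by 1.5 (0.0301). Foxc2 passed in 10 of 12 fits with 1 array left out, Ets1 in 8 and Ctbp1 in 1, and without saline LCA 1 the list gave 3 higher and 4 lower. Averaged over treatments Id2, an inhibitor of basic helix-loop-helix proteins such as Twist1, rose by 0.75 (0.0278), in 5 of 12 fits with 1 array left out. The factor Sox9 passed there as higher (0.0338), in 4 of 12 fits, and no size is given because no saline RCA pool lay above detection. No gene of this list passed with flow under 5Aza with all arrays, and 1 rose without saline LCA 1. That fit also gave 4 higher and 2 lower for 5Aza in the ligated artery, 2 higher for the change with 5Aza, and 4 higher and 6 lower for averaged flow, where all arrays gave 0, 0, and 2 in each direction.

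Among signals that induce the transition, 20 of 29 listed genes were tested, and under saline 1 rose, 2 fell and 17 did not pass, against 11.5% of all genes called, with a median log2 difference of -0.01. Acvrl1, an endothelial receptor of the transforming growth factor beta family, fell by 1.28 (limma adjusted p = 0.00955), and Smad7, the inhibitory Smad, by 1.12 (0.03). Il1b, the cytokine interleukin 1 beta, was at least 7.17-fold higher (0.0175), with no unligated saline pool above detection. Averaged over treatments Notch1, a flow-sensing receptor of endothelium, fell by 0.85 (0.0203), in 10 of 12 fits with 1 array left out. Acvrl1 passed in 11 of 12 fits with 1 array left out, and Smad7 and Il1b in 7 each, and without saline LCA 1 the list gave 2 higher and 4 lower, a share near the 29.4% of all genes. Between treatments 0 of the 20 passed in the ligated artery and 0 in the change with 5Aza, against 4 higher and 2 lower and 5 higher and 1 lower without that array.

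In the families of the 2 markers, the called filament genes were higher and the S100 genes went both ways. Of 6 tested intermediate filament genes other than Vim, Krt18 rose under saline by 1.55 on the log2 scale (limma adjusted p = 0.0222) and Synm, synemin, by 1.09 (0.0473), with a list median of 0.95. Of 7 tested S100 genes other than S100a4, S100a9, a subunit of calprotectin made by neutrophils and monocytes, was at least 11.6-fold higher (0.0154), and S100a1, a calcium sensor of cardiac and skeletal muscle, fell by 1.09 (0.0284). The S100 list median was 0.17. Counts of both lists under saline stand against 11.5% of all genes called. Krt18 and both S100 genes passed in 8 of 12 fits with 1 array left out, and Synm in 2. Leaving out saline LCA 1, the filament list gave 3 higher and the S100 list 3 higher and 2 lower, against 29.4% of all genes. Averaged over treatments the lamin gene Lmnb1 also rose, by 1.31 (0.0365), in 2 of 12 fits. The fit without saline LCA 1 further gave 2 filament genes higher for flow under 5Aza and 1 lower for 5Aza in the ligated artery, where 1 S100 gene was higher and 1 lower, and 1 S100 gene lower for the change with 5Aza.

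Genes of most similar pattern were picked by Pearson correlation of log2 values over the 12 pools, which share groups, arrays and normalization, as a description without a test. For Twist1 they were Stim2 (0.979), Rhoq (0.965) and Wwc2 (0.958). For Vim they were Mmp12 (0.957), Angpt2 (0.957) and Cd180 (0.956), which encode a macrophage elastase, an angiopoietin and a receptor of immune cells. For S100a4 they were Clec4a1 (0.976), H2ac21 (0.976) and H2ac7 (0.975), a lectin gene of myeloid cells and a pair of histone genes. For Zeb2 they were AI467606 (0.977), Sgms1 (0.928) and Atp2a3 (0.921), and for Zeb1 Slc12a3 (0.883), Tmco3 (0.867) and Tamm41 (0.851).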

How the data were processed

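RNA of 12 samples was measured on Illumina mouse bead arrays. The authors deposited unprocessed intensity values with detection p-values by probe and sample, per the file headers, and GenomeStudio 2010.3 is named in the submitters' processing notes. A deposited table of normalized intensity served as an alternative only. Which sample was on which of the 2 microarrays is not given in the sources used here.

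Intensities were corrected, quantile-normalized and log2-transformed with neqc (offset 16) of limma 3.58.1 in R 4.3.3. Probes were kept when detected (detection p under 0.05) on all 3 samples of a group, which left 21979, and each of 10596 genes was read from its brightest kept probe. Of 45281 probes, 34885 carried 1 symbol, 18 several and 10378 none. One linear model covered all 12 samples, with 6 two-sided contrasts and Benjamini-Hochberg adjustment over all genes. Genes with adjusted p under 0.05 were called, and SE is that of the moderated test. Nothing says that pools came from separate mice beyond their labels, so p-values measure the spread between pools. A gene counted as undetected where none of its probes was detected.

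The 8 genes and the lists were chosen with earlier results of these data known. Named are all 8 genes with their probes, and in each list and comparison the genes past the threshold, at most 4 by smallest adjusted p. The rule also took up to 2 of smallest p where none passed, which the text gives for 1 list only. Alternatives changed starting values, background, scaling, filter, probes per gene, variance prior, array weights, samples, blocks, minimum fold and each array in turn. The pipeline was tested on simulated data.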

Additional observations from a re-analysis of the deposited data

How the results depend on the processing

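Of 156 alternative counts of called genes among the 5 tested, 147 kept the count within 1.5 times, and of 780 alternative values of single genes 723 kept their direction and side of the threshold. By that rule a change from 3 to 2 counts as kept, so fits that lost S100a4 under saline are among the 147. For flow under 5Aza, 5Aza in either artery and the change with 5Aza, the main count was 0, against 0% to 0.462% of all genes. A count of 0 was likely to stay 0 there, so the 147 is a weak measure of stability. Flow under saline gave 3 calls, and 1 both with only the groups compared and with the replicate number as a block within treatment. Averaged flow gave 3, and 1 with that block and with a minimum fold of 1.2. With array weights, 5Aza in the ligated artery gave 3 calls instead of 0 and the change of the flow difference with 5Aza gave 1 instead of 0. Leaving out 1 array gave 2 to 4 calls for flow under saline, 0 to 1 for flow under 5Aza, 0 to 3 for 5Aza in the ligated artery, 0 to 2 for the change with 5Aza and 2 to 4 for averaged flow, each highest without saline LCA 1, and 0 throughout for 5Aza in the unligated artery.

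All 15 values that changed sign belong to differences that did not pass. With the mean of kept probes, Zeb2 gave 0.20 for flow under 5Aza, 0.09 for averaged flow and -0.13 for 5Aza in the unligated artery, where Vim also gave -0.13. With the replicate block over all groups these last were -0.14 for Zeb2 and -0.13 for Vim, and with the block within treatment Zeb1 gave 0.02 for flow under 5Aza. For 5Aza in the unligated artery, Zeb2 was -0.04 and -0.05 without saline RCA 2 and 4 and -0.08 and -0.06 without 5Aza RCA 3 and 4, within a range of -0.08 to 0.19 over the arrays left out, and Vim was 0 without saline RCA 2 and -0.09 without 5Aza RCA 3, within -0.09 to 0.25. The change of the Zeb1 flow difference was -0.08 without saline LCA 4 and -0.05 without 5Aza RCA 1, within -0.08 to 0.24. The cause was not tested.

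Beyond single arrays, the S100a4 call under saline was lost without the detection filter (adjusted p = 0.104), with only the groups compared (0.147), with the block over all groups (0.0681) or within treatment (0.08), and with the minimum fold (0.0943). The Twist1 call was lost with the block within treatment (0.0548). Deviations of same-numbered pools correlated at -0.028 to 0.056, so the numbers were not taken to pair the pools. Each saline LCA pool, but not each 5Aza LCA pool, correlated best with its own number. As a random term the block had a consensus correlation of 0.018. Over all genes, calls were 1221 for flow under saline (129 to 3743 over the alternatives), 48 for flow under 5Aza (4 to 286), 49 for 5Aza in the ligated artery (0 to 2254), 0 for 5Aza in the unligated artery (0 to 1), 0 for the change with 5Aza (0 to 1016) and 1364 for averaged flow (287 to 3395). For flow under 5Aza 52.1% of calls were higher, and 41.4% with the deposited normalized table.

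Precision is limited by 3 pools per group, by a saline LCA group whose root mean variance was 0.51, against 0.33 to 0.37 in the others, and by probes of Snai1, Snai2 and Twist2 near background. The block within treatment could not be fitted for comparisons between treatments.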
